A study of Mus musculus with 18 samples.

Results

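Aquaporins are membrane channels for water, and the receptors for vasopressin, the antidiuretic hormone, set how much of that water the kidney takes back. The genes described here are 8 aquaporins (Aqp1, Aqp2, Aqp3, Aqp4, Aqp6, Aqp7, Aqp8 and Aqp11) and 2 vasopressin receptors (Avpr1a and Avpr2), named as a family by symbol and not by their values. They are 10 of the 19518 genes of a kidney RNA sequencing table made from 10-week-old mice of the outbred ICR strain. The 18 libraries form 6 groups of 3: control; AOS at 10 mg/kg; high fat diet (HFD); HFD with AOS at 10 mg/kg (HFD+AOS); HFD with a faecal microbiota transplant (FMT) whose label reads AOS at 10 mg/kg (HFD+AOS-FMT); and HFD with a control FMT (HFD+control-FMT). The abbreviation AOS stands as the labels give it. By its title and design the study asks whether the transplant labelled AOS counters effects of the diet on the kidney. Neither sex, nor the donors of the transplants, nor the hour of collection is stated, and nothing in the labels marks replicates as separate animals. Every p-value below is therefore set against a spread between libraries that may be technical.

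In the kidney, Aqp1 carries water through the proximal tubule and the thin descending limb. In principal cells of the collecting duct, vasopressin binds the V2 receptor (Avpr2), cAMP rises, protein kinase A phosphorylates Aqp2, and Aqp2 moves to the apical membrane. Water then leaves the cell at its base through Aqp3 and Aqp4. Aqp6 sits in vesicles of acid-secreting intercalated cells, Aqp7 carries glycerol and water in the last segment of the proximal tubule, and Aqp11 lies in the endoplasmic reticulum of proximal tubule cells. Aqp8 is a water channel of inner membranes in several epithelia. The V1a receptor (Avpr1a) signals through Gq, phospholipase C and calcium, and in the kidney it is known from intercalated cells and vessels.

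Upstream sequences are shown for the 4 genes on which the results below turn or which lie in the Aqp2 cluster and hold a searched motif. Each is the 250 bases before the RefSeq start of the gene (GRCm38.p6), read 5′ to 3′ on the plus strand, on which all 4 genes lie. Capitals mark the E-box CACGTG, a site of clock and other basic helix-loop-helix factors, and the TGACG core of the cAMP response element, which reads CGTCA on the other strand.
Aqp8, chr7:123462044-123462293: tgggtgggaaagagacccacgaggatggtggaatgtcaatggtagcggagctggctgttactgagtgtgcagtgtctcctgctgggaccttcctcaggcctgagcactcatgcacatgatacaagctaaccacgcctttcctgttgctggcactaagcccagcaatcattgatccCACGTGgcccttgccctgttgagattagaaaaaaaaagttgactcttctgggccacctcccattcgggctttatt
Aqp2, chr15:99578806-99579055: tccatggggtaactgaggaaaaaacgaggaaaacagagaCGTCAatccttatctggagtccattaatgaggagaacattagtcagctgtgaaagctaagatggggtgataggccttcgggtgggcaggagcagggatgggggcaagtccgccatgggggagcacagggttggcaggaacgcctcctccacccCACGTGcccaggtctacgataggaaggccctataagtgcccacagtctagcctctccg
Aqp6, chr15:99600950-99601199: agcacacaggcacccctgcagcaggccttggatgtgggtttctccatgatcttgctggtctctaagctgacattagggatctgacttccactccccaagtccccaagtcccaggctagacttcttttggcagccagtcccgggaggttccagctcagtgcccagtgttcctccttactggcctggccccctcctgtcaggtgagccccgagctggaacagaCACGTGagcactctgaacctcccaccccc
Avpr1a, chr10:122448249-122448498: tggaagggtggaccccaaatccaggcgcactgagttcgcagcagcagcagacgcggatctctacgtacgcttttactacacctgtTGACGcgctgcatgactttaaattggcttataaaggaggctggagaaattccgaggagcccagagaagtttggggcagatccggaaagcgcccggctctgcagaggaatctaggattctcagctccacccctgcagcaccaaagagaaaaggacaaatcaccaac

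The E-box lies 70 to 75 bases before the start of Aqp8, 53 to 58 before that of Aqp2 and 24 to 29 before that of Aqp6. The core TGACG lies 207 to 211 bases before the start of Aqp2 and 161 to 165 before that of Avpr1a. Both strands were searched in 32851 windows of 250 bases, of which 10 belong to 9 of the genes, with none for Aqp4. The E-box was in 6.02% of all windows and the TGACG core in 17.8%, so a match to the core is common. The full palindrome TGACGTCA (1.55% of all windows, overlapping the core) and the D-box forms TTATGTAA (0.819%) and TTACGTAA (0.113%) were in none of the 10 windows. AGGTCA, a nuclear receptor motif found in 14% of all windows, was in the windows of Aqp7 and Aqp11. These matches describe letters only.

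In the genome (GRCm38, GENCODE M21) the family holds a pair of neighbourhoods. On chromosome 15, plus strand, Aqp2 (99579055 to 99584547) and Aqp6 (99601400 to 99605477) are separated by 16.9 kb, with Aqp5 between them. On chromosome 4, minus strand, Aqp7 (41033074 to 41048139) and Aqp3 (41092722 to 41098183) are 44.6 kb apart. Aqp1 lies on chromosome 6 (55336432 to 55348555, plus), Aqp4 on 18 (15389496 to 15410982, minus), and Aqp8 (123462291 to 123468004, plus) and Aqp11 (97724006 to 97738289, minus) both on 7. Avpr1a lies on chromosome 10 (122448499 to 122453452, plus) and Avpr2 on X (73892102 to 73895502, plus). Of the 2886 exon bases of Avpr2, 2347 (81.3%) are also exon of Arhgap4 on the opposite strand. Whether the counting used strand is not stated, so the values of Avpr2 may hold reads of Arhgap4, whose own median value was 1.44.

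Values are normalized signals with no named unit, and column sums behave as if scaled for gene length and depth, so levels of different genes are set side by side on that scale. The read number is unknown. A step in the low values of 123 genes put the relative depth at 0.881 in control replicate 3, 0.923 in control replicate 1 and 1.0 to 1.018 in the other 16. Control replicate 3 stands apart, with r of 0.948 to 0.963 across genes against at least 0.979 among the others, and with a summed adrenal marker signal of 921.9 against at most 2.31 elsewhere. Testis germ cell markers other than Smcp summed to 26.7 to 40.3 in the 3 control libraries and HFD replicates 1 and 2. Their sum was at most 0.55 in the other 13. Smcp, also on that list, was left out of these sums and was present in every library, at 11.68 to 33.56. The differences of the family below that rest on control replicate 3 are given without it. For those that rest on HFD replicates 1 and 2, values without 1 of them or with the germ cell libraries as a batch term stand beside the result where they differ by about 1.5 times or end a call.

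All 10 genes were detected in every library, and their medians over 18 libraries spread widely. Aqp1 stood highest at 277.9, followed by Aqp2 at 64.1, Aqp3 at 44.5 and Aqp11 at 30.9. Aqp6 (13), Avpr2 (9.98), Aqp4 (8.42) and Aqp7 (7.58) lay close together, and their ranges over libraries overlapped. Avpr1a (2.64) and Aqp8 (0.665) were lowest. The steadiest genes were Aqp1, with a coefficient of variation of 8.73% over all libraries, and Aqp11, with 10.5%, and the least steady were Aqp8 (69.9%), Aqp2 (62.1%), Aqp4 (47.5%) and Aqp6 (44.6%). Without control replicate 3 the variation of Aqp2 was 34.3% and that of Aqp6 31.5%, while Aqp8 (65.8%) and Aqp4 (46.6%) kept most of theirs.

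**Figure D1:**
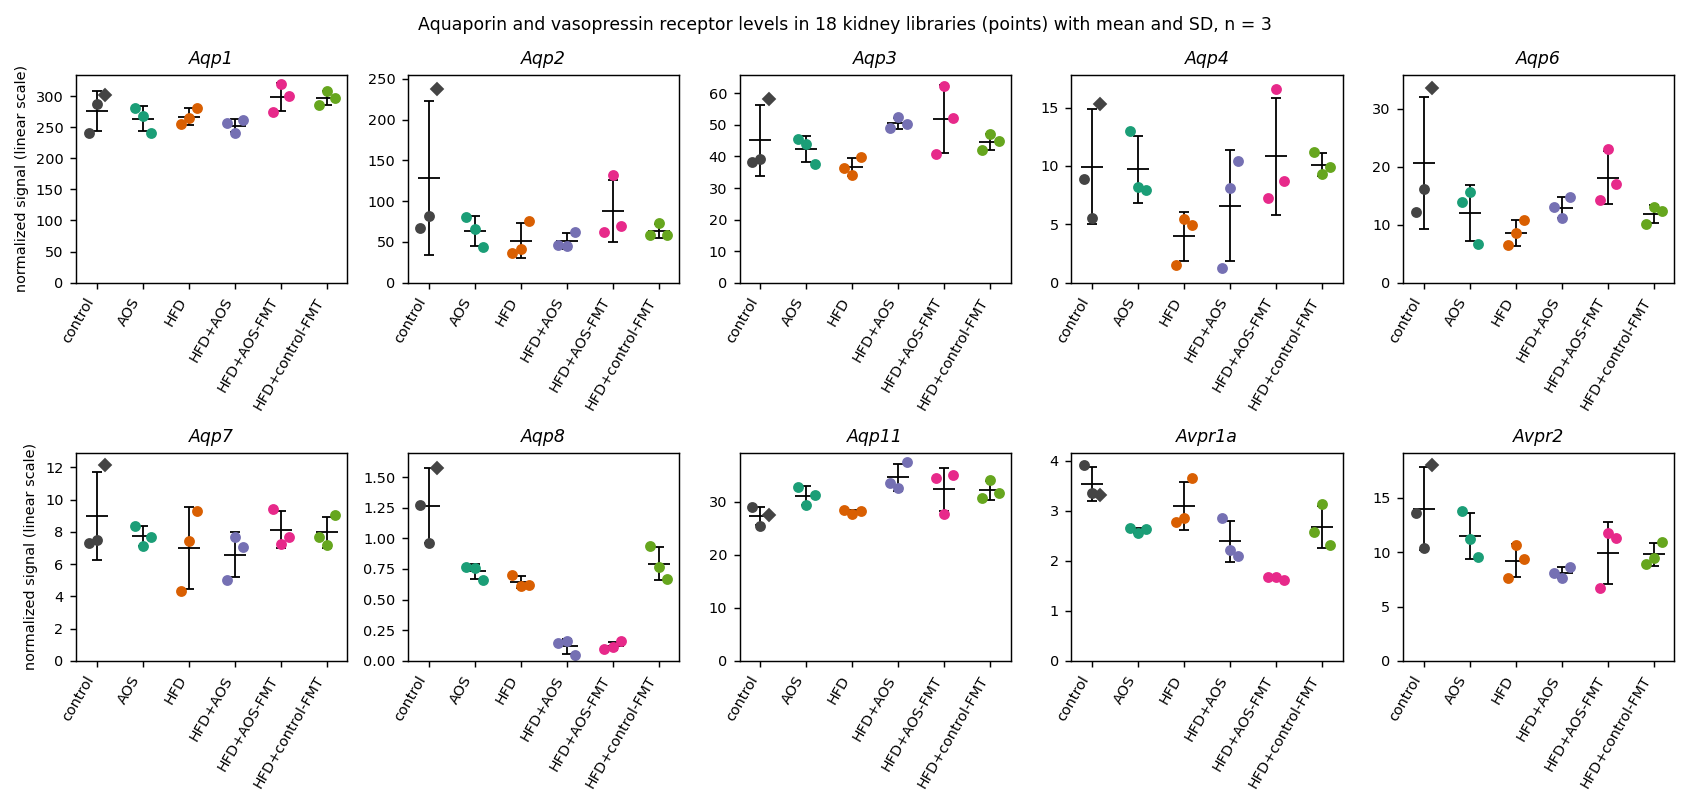
Normalized signal (vertical axis, linear scale from 0) of each of the 10 genes in the 6 groups, with 1 point a library and the mean with SD (n = 3) in black. The diamond is control replicate 3, which is the highest library for Aqp2 (237.4), Aqp6 (33.5), Aqp7 (12.1), Aqp8 (1.57) and Avpr2 (18), and the 6 libraries of HFD+AOS and HFD+AOS-FMT are the lowest for Aqp8.

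Avpr1a, the V1a receptor gene, was the only member that passed the test among the 9 with values of at least 1 in 3 or more libraries, which were fitted with limma together with 12031 genes. Its values were 3.92, 3.36 and 3.31 in control, 2.65, 2.55 and 2.63 in AOS, and 2.77, 2.86 and 3.65 in HFD. They were 2.86, 2.21 and 2.1 in HFD+AOS, 2.57, 3.14 and 2.31 in HFD+control-FMT, and 1.67, 1.68 and 1.61 in HFD+AOS-FMT. The 3 HFD+AOS-FMT libraries lay below the other 15 and within 0.07 of each other.

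Ordered by group mean, Avpr1a ran from control (3.53 ± 0.339, SD, n = 3 in every group) through HFD (3.09 ± 0.484), HFD+control-FMT (2.67 ± 0.425), AOS (2.61 ± 0.0529) and HFD+AOS (2.39 ± 0.411) to HFD+AOS-FMT (1.65 ± 0.0379). Neighbouring groups in this order overlapped in their libraries except the last pair. Against HFD, Avpr1a fell in HFD+AOS-FMT to 0.534 of the HFD mean, a log2(value + 1) difference of -0.62 (SE 0.11, limma adjusted p = 0.0436). Of all genes tested 0.175% passed in that comparison, and 1 of the 9 members did. Against control it fell by 0.77 (SE 0.11, limma adjusted p = 0.0055), where 2.32% of all genes passed and again 1 of 9 members. An F test over the 6 groups gave a limma adjusted p of 0.0262 for Avpr1a, in which 1.02% of all genes passed and 1 of 9 members.

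The comparison of both transplants on the same diet did not pass for Avpr1a (log2 difference -0.46, SE 0.11, unadjusted p = 0.000795, limma adjusted p = 0.471), though its 3 values in HFD+AOS-FMT lay below the 3 in HFD+control-FMT. In that comparison limma called 0 of 12031 genes (0%), with 845 at an unadjusted p under 0.05 (7.02%), and 1 of 9 members was among these. A smaller log2 difference of -0.27 (SE 0.11, unadjusted p = 0.0265, limma adjusted p = 0.256) was measured in HFD+AOS against HFD, and of -0.32 (SE 0.11, unadjusted p = 0.0102, limma adjusted p = 0.354) in AOS against control. With the batch term they were -0.46 and -0.61, and the first was -0.18 without HFD replicate 3. The second was as small as -0.17 over 26 alternatives, none of which passed (limma adjusted p of 0.152 to 0.861). These comparisons share groups, so they are not separate evidence.

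The call of Avpr1a against HFD held in 6 of 18 fits that each left out 1 library (limma adjusted p of 0.00646 to 0.173 over the 18), namely without control replicate 1 or 3, HFD+AOS replicate 1 or 3, or HFD+control-FMT replicate 2 or 3. It ended without any 1 of the other 12, with the log2 difference between -0.68 and -0.52 throughout. It also ended after quantile normalization (0.0614), with no filter on low values (0.0581) and with the germ cell libraries as a batch term (0.242). Against control the call held in all 18 such fits (0.0028 to 0.0279). It ended in a fit of those 2 groups alone (0.311) and with the batch term (0.231). All 3 control libraries and no HFD+AOS-FMT library carried that term, so with it these groups are compared only through the HFD libraries.

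Aqp8 showed the widest relative range of the family, 31.4-fold from its lowest to its highest library, at a low level. It reached a value of 1 in only 2 libraries and did not pass the filter, so it was tested in the alternative fit without a filter, over 18786 genes. In control it stood at 1.27, 0.96 and 1.57, in AOS at 0.77, 0.76 and 0.66, and in HFD at 0.7, 0.61 and 0.62. In HFD+control-FMT it was at 0.94, 0.77 and 0.67. In HFD+AOS it was at 0.15, 0.16 and 0.05, and in HFD+AOS-FMT at 0.1, 0.11 and 0.16. The 6 libraries of mice on the diet with AOS or its transplant, at 0.05 to 0.16, did not overlap with the other 12, at 0.61 to 1.57.

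Group means of Aqp8 fell in order from control (1.27 ± 0.305, SD, n = 3 in every group) through HFD+control-FMT (0.793 ± 0.137), AOS (0.73 ± 0.0608) and HFD (0.643 ± 0.0493) to HFD+AOS-FMT (0.123 ± 0.0321) and HFD+AOS (0.12 ± 0.0608). The libraries of HFD+control-FMT, AOS and HFD overlapped, as did those of HFD+AOS-FMT and HFD+AOS. Against HFD, the mean was 0.187 of the HFD level in HFD+AOS (log2(value + 1) difference -0.55, SE 0.09, limma adjusted p = 0.0251), where 0.24% of all genes passed in the fit without a filter. It was 0.192 of the HFD level in HFD+AOS-FMT (difference -0.55, SE 0.09, limma adjusted p = 0.0407), where 0.0745% passed. It was 0.0974 of the control level in HFD+AOS-FMT (difference -1.0, SE 0.09, limma adjusted p = 7.77e-05), where 2.6% passed. The F test over 6 groups gave a limma adjusted p of 0.000281 for Aqp8, with 1.41% of all genes past the threshold.

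The other comparisons of Aqp8 missed the threshold in this fit. The mean in HFD+AOS-FMT was 0.155 of that in HFD+control-FMT (difference -0.67, SE 0.09, limma adjusted p = 0.0555), a comparison in which 0 of 18786 genes (0%) passed and 1086 had an unadjusted p under 0.05. HFD was at 0.508 of control (-0.46, SE 0.09, adjusted p = 0.0812, 0.133% of genes passing) and AOS at 0.576 of control (-0.38, SE 0.09, adjusted p = 0.0789, 0.793% passing), and neither overlapped with control. HFD+control-FMT and HFD overlapped (difference 0.12, SE 0.09, limma adjusted p = 1).

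With a pseudocount of 0.1 in place of 1, which flattens low values less, the difference of Aqp8 between both transplants was -2.0 (limma adjusted p = 0.00831), and without control replicate 3 the difference stayed at -0.67 with an adjusted p of 0.00602. Between both transplants Aqp8 stayed uncalled in 18 of 24 alternatives. Of 18 fits that left out 1 library, only 3 passed (limma adjusted p up to 0.312). The call in HFD+AOS against HFD ended without HFD replicate 1 or 2 or any 1 of the HFD+AOS replicates (limma adjusted p up to 0.102). The call in HFD+AOS-FMT against HFD held in 5 of 18 fits that left out 1 library (without any 1 of the controls, HFD replicate 3 or HFD+AOS replicate 3) and ended in the other 13 (up to 0.177). With the germ cell libraries as a batch term the adjusted p was 0.24, 0.37 and, for HFD+AOS-FMT against control, 0.0952, and the last call also ended in a fit of those 2 groups alone (0.0902). Without control replicate 2 the comparisons of HFD and of AOS with control passed for Aqp8 (limma adjusted p = 0.011 and 0.0116). In that fit 397 and 455 of 18722 genes passed. Each comparison stayed uncalled in the other 23 of 24 alternatives. The differences were there as small as -0.28 for HFD and -0.21 for AOS, with limma adjusted p up to 0.728 and 0.889. All 6 low values lay within 0.01 of 1, 2 or 3 times 0.05, so they rest on few steps of what the table resolves, and their counting error is unknown.

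Some circadian clock genes moved with Aqp8, and their part in the result was not tested. Avpr1a followed them less closely, since it was at 1.61 to 1.68 in HFD+AOS-FMT but at 2.1 to 2.86 in HFD+AOS, which overlapped with HFD (2.77 to 3.65). Arntl, the clock activator, was at 1.3 to 2.41 in the 6 libraries where Aqp8 was low and at 2.71 to 12.54 in the other 12, and Hlf, a clock output factor, at 31.0 to 35.2 against 20.23 to 28.67. Of the 13 listed clock genes, these were the 2 whose values did not overlap between the 6 and the 12. With control replicate 3 set aside, Npas2, Per2, Per3, Cry2, Nr1d2, Dbp and Tef did not overlap either. Dbp, for example, was then at 63.79 to 97.78 against at most 43.69. Clock, Per1, Cry1 and Nr1d1 still overlapped. None of the 13 was at 0 in all libraries of any group. The list summed to 294.9 to 327.1 in HFD+AOS and 282.2 to 330.8 in HFD+AOS-FMT. The sums were 129.4 to 159.4 in HFD, 155.3 to 218.0 in AOS, 167.5 to 240.6 in HFD+control-FMT and 120.7 to 338.5 in control. In control replicate 3, 7 of the 13 clock genes lay within the range of the 6, among them Dbp, another output factor, at 90.6. The other 6 lay outside it, with Arntl at 2.71 just above the range, Hlf at 24.63 among the values of the 12, and Per1 at 19.01 and Cry2 at 9.29 above all other libraries. That library held the highest Aqp8 value (1.57) and an Avpr1a value of 3.31. Summed markers of other cell types also differed in these comparisons, and their part was not tested. The 6 red blood cell markers summed to 1674 to 3390 in HFD+AOS, 4773 to 5343 in HFD, 3495 to 4814 in HFD+AOS-FMT, 4981 to 7092 in HFD+control-FMT, 2623 to 6273 in control and 2712 to 6925 in AOS. The 8 proximal tubule markers summed to 4686 to 5045 in HFD+AOS, 4313 to 4583 in HFD, 4211 to 4751 in HFD+AOS-FMT, 3837 to 4348 in HFD+control-FMT, 2793 to 4567 in control and 4281 to 4587 in AOS. None of these markers was at 0 throughout a group, and HFD+AOS did not overlap with HFD in either sum. Hba-a1 and Slc34a1 made up most of these sums, and the listed genes did not all move alike. In HFD+AOS against HFD, Hba-a1, Hba-a2 and Alas2 were lower without overlap, and Hbb-bs, Hbb-bt and Slc4a1 overlapped. Slc34a1, Slc5a2, Slc5a12 and Slc7a13 were higher without overlap, and Lrp2, Cubn and Slc22a6 overlapped. Slc22a7 was lower (27.9 to 77.48 against 84.38 to 158.66).

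**Figure D2:**
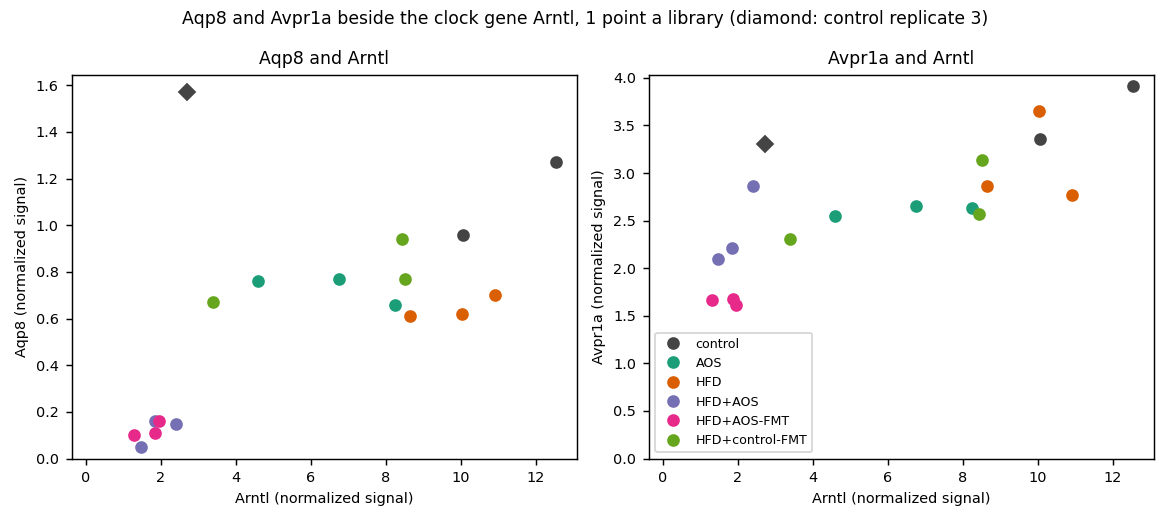
Aqp8 (left) and Avpr1a (right) on the vertical axis against the clock gene Arntl on the horizontal axis, all as normalized signal on linear scales, with 1 point a library coloured by group. HFD+AOS and HFD+AOS-FMT lie at the lower left in the Aqp8 panel, in the Avpr1a panel they lie at the left with HFD+AOS replicate 1 at 2.86, and control replicate 3 (diamond) joins a low Arntl value of 2.71 to an Aqp8 value of 1.57.

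Aqp2, the vasopressin-regulated apical channel, stood at 66.6, 82 and 237.4 in control and at 80.3, 65.8 and 43.2 in AOS. It was at 36.6, 41.4 and 75.8 in HFD and at 46.6, 44.7 and 62.1 in HFD+AOS. Values were 62.4, 131.8 and 69.3 in HFD+AOS-FMT and 58.6, 72.5 and 58.3 in HFD+control-FMT. Control replicate 3 and HFD+AOS-FMT replicate 2 were the high libraries, and all 6 groups overlapped with at least 1 other. In HFD against control the mean was 51.3 ± 21.4 against 128.7 ± 94.5 (SD, n = 3), a log2(value + 1) difference of -1.15 (SE 0.42, unadjusted p = 0.0155, limma adjusted p = 0.24). Without control replicate 3 the difference was -0.59 (adjusted p = 0.815).

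The basolateral channel Aqp4 was at 8.9, 5.58 and 15.3 in control, 13, 8.16 and 7.96 in AOS, and 1.54, 5.41 and 4.93 in HFD. It was at 1.29, 8.09 and 10.4 in HFD+AOS, 7.22, 16.6 and 8.68 in HFD+AOS-FMT, and 11.2, 9.27 and 9.91 in HFD+control-FMT. The 3 HFD values lay below all 3 of control, AOS and of either transplant group. HFD against control gave a log2 difference of -1.15 (SE 0.53, unadjusted p = 0.0471, limma adjusted p = 0.285), and -0.82 without control replicate 3. Both transplant groups were above HFD by nearly the same amount, 1.28 for HFD+AOS-FMT (SE 0.53, unadjusted p = 0.0292, limma adjusted p = 0.307) and 1.27 for HFD+control-FMT (SE 0.53, unadjusted p = 0.0304, limma adjusted p = 1). Against each other they differed by 0.01 (SE 0.53). None of these passed. Without HFD replicate 1, the lowest HFD library, the differences were -0.73 from control, 0.86 for HFD+AOS-FMT and 0.85 for HFD+control-FMT, and with the batch term -1.34, 0.91 and 0.90.

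The other basolateral channel, Aqp3, was at 38.4, 39.1 and 58.1 in control, 45.4, 44 and 37.8 in AOS, and 36.2, 34.2 and 39.9 in HFD. It was at 49, 52.4 and 50.3 in HFD+AOS, 40.9, 62.4 and 52.4 in HFD+AOS-FMT, and 42.1, 47.1 and 45 in HFD+control-FMT. HFD held the lowest values, below every library of HFD+AOS and of both transplant groups. HFD+AOS exceeded HFD by a log2 difference of 0.45 (SE 0.15, unadjusted p = 0.00901, limma adjusted p = 0.162) and HFD+AOS-FMT by 0.47 (SE 0.15, unadjusted p = 0.00722, limma adjusted p = 0.195). Without control replicate 3, which enters these comparisons only through the shared spread, both passed (limma adjusted p = 0.031 and 0.0324), as did the first in a fit of those 2 groups alone (0.0282). Without that library 818 and 585 of 11959 genes passed, against 99 and 21 of 12031 with it. In the fit of 2 groups alone 314 of 12031 passed. With the germ cell libraries as a batch term the Aqp3 differences of HFD+AOS and HFD+AOS-FMT from HFD were 0.34 and 0.35 (limma adjusted p = 0.719 and 0.851).

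Avpr2, the V2 receptor gene that acts ahead of these channels, was at 13.6, 10.4 and 18 in control, 13.8, 11.2 and 9.56 in AOS, and 7.61, 10.6 and 9.4 in HFD. It was at 8.1, 7.6 and 8.6 in HFD+AOS, 6.67, 11.7 and 11.4 in HFD+AOS-FMT, and 8.9, 9.51 and 11 in HFD+control-FMT. HFD+AOS lay below control, AOS and HFD+control-FMT without overlap, and control held the highest library. HFD against control differed by -0.53 (SE 0.20, unadjusted p = 0.0188, limma adjusted p = 0.245) and HFD+AOS-FMT against control by -0.46 (SE 0.20, unadjusted p = 0.0372, limma adjusted p = 0.23), and these were -0.35 and -0.28 without control replicate 3. The second was -0.23 without HFD+AOS-FMT replicate 1. Neither passed.

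The intercalated cell channel Aqp6, 16.9 kb from Aqp2, was at 12.2, 16.1 and 33.5 in control, 13.8, 15.6 and 6.58 in AOS, and 6.41, 8.51 and 10.8 in HFD. It was at 13, 11.1 and 14.7 in HFD+AOS, 14.2, 23.1 and 17 in HFD+AOS-FMT, and 10, 13.1 and 12.4 in HFD+control-FMT. The 3 HFD values were below all values of control, HFD+AOS and HFD+AOS-FMT. HFD against control differed by -1.07 (SE 0.33, unadjusted p = 0.00553, limma adjusted p = 0.234) and by -0.67 without control replicate 3. HFD+AOS-FMT against HFD differed by 0.99 (SE 0.33, unadjusted p = 0.00896, limma adjusted p = 0.209), and by 0.66 with the batch term. Neither passed.

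Some markers of the collecting duct and inner medulla moved with these genes in single libraries, and their part was not tested. In bulk RNA fewer cells of a type and less RNA per cell cannot be told apart, and a kidney piece may hold more or less medulla. Slc14a2, the urea transporter of the inner medullary collecting duct, was listed at 0 in control replicate 1 and stood at 14.5 and 18.9 in control replicates 2 and 3. It was at 5.6, 10.6 and 0.44 in AOS, 0.05, 3.4 and 10.6 in HFD, and 0.11, 0.05 and 3.17 in HFD+AOS. It was at 2.69, 19.9 and 3.24 in HFD+AOS-FMT and 2.91, 4.5 and 5.45 in HFD+control-FMT. The pair of libraries with the most Aqp2 and Aqp4 were also the pair with the most Slc14a2. Between groups the order differed, since in HFD+AOS the mean of Slc14a2 was below that in HFD while Aqp3 and Aqp6 were above it in every library.

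The 5 markers of inner medulla and vasa recta, none at 0 throughout any group, summed to 113.0 to 206.9 in control, 167.9 to 200.6 in HFD and 176.1 to 248.9 in HFD+AOS-FMT. They summed to 153.1 to 192.5 in AOS, 146.4 to 167.2 in HFD+AOS and 185.6 to 190.7 in HFD+control-FMT. Akr1b3 and Plvap made up most of these sums, and the listed genes did not all move alike. The HFD mean of Akr1b3 was above that of control (120.2 against 76.8). Lower means in HFD than in control were those of Plvap (48.9 against 65.6), Slc14a2 (4.7 against 11.1), Slc14a1 (0.673 against 1.49) and Slc5a3 (6.52 against 8.14). The 6 principal cell markers summed to 114.5 to 207.4 in control, 104.5 to 121.5 in AOS and 101.5 to 117.6 in HFD. Their sums were 104.8 to 107.6 in HFD+AOS, 115.9 to 133.0 in HFD+AOS-FMT and 99.6 to 110.1 in HFD+control-FMT. Intercalated cell markers (6 genes) summed to 84.5 to 129.2 in control, 79.9 to 82.4 in AOS, 69.2 to 82.7 in HFD, 79.5 to 93.8 in HFD+AOS, 81.5 to 92.7 in HFD+AOS-FMT and 70.9 to 76.6 in HFD+control-FMT. All markers of these lists, and the 8 of the proximal tubule, were present in every group.

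**Figure D3:**
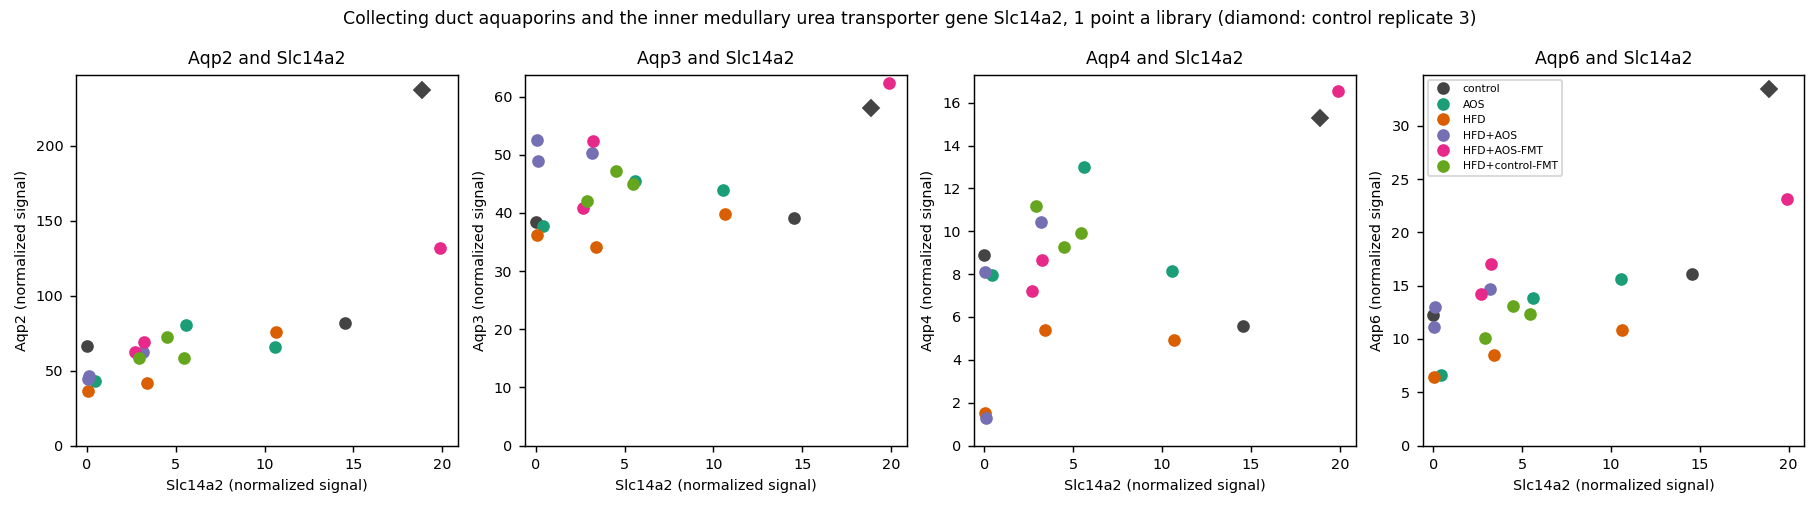
Aqp2, Aqp3, Aqp4 and Aqp6 (vertical axes) against Slc14a2, the inner medullary urea transporter gene (horizontal axis), as normalized signal on linear scales with 1 point a library coloured by group. Control replicate 3 (diamond) and HFD+AOS-FMT replicate 2 lie at the upper right, with Slc14a2 at 18.9 and 19.9.

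Aqp1 and Aqp11 of the proximal tubule varied least. Aqp1 was at 240.8, 286.5 and 302.4 in control, 281.2, 268.5 and 241.1 in AOS, and 254.6, 265.2 and 280.8 in HFD. It was at 256.1, 240.7 and 260.9 in HFD+AOS, 275.1, 319.8 and 300.4 in HFD+AOS-FMT, and 285.1, 307.5 and 297.6 in HFD+control-FMT. Its 7 log2 differences lay between -0.08 and 0.16, each with an SE of 0.09, and none had an unadjusted p under 0.05. The 3 HFD+control-FMT values lay above the 3 HFD values.

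Aqp7 was at 7.34, 7.5 and 12.1 in control, 8.39, 7.15 and 7.68 in AOS, and 4.31, 7.42 and 9.29 in HFD. It was at 5, 7.7 and 7.07 in HFD+AOS, 9.43, 7.27 and 7.69 in HFD+AOS-FMT, and 7.67, 7.21 and 9.05 in HFD+control-FMT. All 6 groups overlapped, and its 7 log2 differences, between -0.34 and 0.23 with an SE of 0.22, all had an unadjusted p above 0.05.

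Aqp11 was at 28.9, 25.5 and 27.4 in control, 32.8, 29.3 and 31.2 in AOS, and 28.4, 27.6 and 28.2 in HFD. It was at 33.6, 32.7 and 37.4 in HFD+AOS, 34.4, 27.6 and 35 in HFD+AOS-FMT, and 30.6, 34.1 and 31.6 in HFD+control-FMT. Control and HFD held the low values, and all 3 libraries of AOS, HFD+AOS and HFD+control-FMT lay above them. HFD+AOS against HFD gave a log2 difference of 0.29 (SE 0.09, unadjusted p = 0.00397, limma adjusted p = 0.122). The other 4 with an unadjusted p under 0.05 were 0.18 for AOS against control (limma adjusted p = 0.389), 0.19 for HFD+AOS-FMT against HFD (0.352), 0.19 for HFD+control-FMT against HFD (1) and 0.23 for HFD+AOS-FMT against control (0.156), each with an SE of 0.09. None passed. The difference of HFD+AOS-FMT from HFD ran from 0.13 without HFD+AOS-FMT replicate 3 to 0.30 without HFD+AOS-FMT replicate 2.

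Set side by side, the 9 tested members gave 63 differences in 7 comparisons, of which 20 had an unadjusted p under 0.05 and 2, both of Avpr1a, passed. In HFD against control 4 of 9 members had an unadjusted p under 0.05, all lower, beside 17.4% of all genes, and limma called 0 members and 0 of 12031 genes (0%, with 2091 at an unadjusted p under 0.05). The members' median log2 difference there was -0.34 and that of all genes -0.10, which was 0.01 after quantile normalization. In AOS against control 2 of 9 (12.7% of all genes), in HFD+AOS against HFD 3 of 9 (15.1%) and in HFD+AOS-FMT against HFD 5 of 9 (13.3%) had an unadjusted p under 0.05. The numbers were 2 of 9 in HFD+control-FMT against HFD (4.5%) and 3 of 9 in HFD+AOS-FMT against control (19%).

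At the adjusted threshold limma called 0 members in AOS against control (0.0332% of all genes), 0 in HFD+AOS against HFD (0.823%) and 0 in HFD+control-FMT against HFD (0% of all genes, with 541 at an unadjusted p under 0.05). The members' median was 0.23 in HFD+AOS-FMT against HFD and 0.21 in HFD+control-FMT against HFD, beside 0.05 and 0.01 for all genes. In both, 8 of 9 members had differences above 0. Both share the HFD libraries, as HFD against control does, so their signs are not separate evidence.

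Counting members whose libraries did not overlap gave 2 of 9 lower in HFD than in control (12.6% of all genes) and 0 higher (3.03%). In AOS against control 1 was higher (3.07%) and 1 lower (10.1%). In HFD+AOS against HFD 3 were higher (16.2%) and 0 lower (12%), and in HFD+AOS-FMT against HFD 3 were higher (17.3%) and 1 lower (7.86%). In HFD+control-FMT against HFD 4 were higher (Aqp1, Aqp3, Aqp4 and Aqp11, against 9.07% of all genes) and 0 lower (6.38%). Between both transplants 1 was higher (12.4%) and 1 lower (5.67%), and in HFD+AOS-FMT against control 0 were higher (5.84%) and 1 lower (10.1%).

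**Figure D4:**
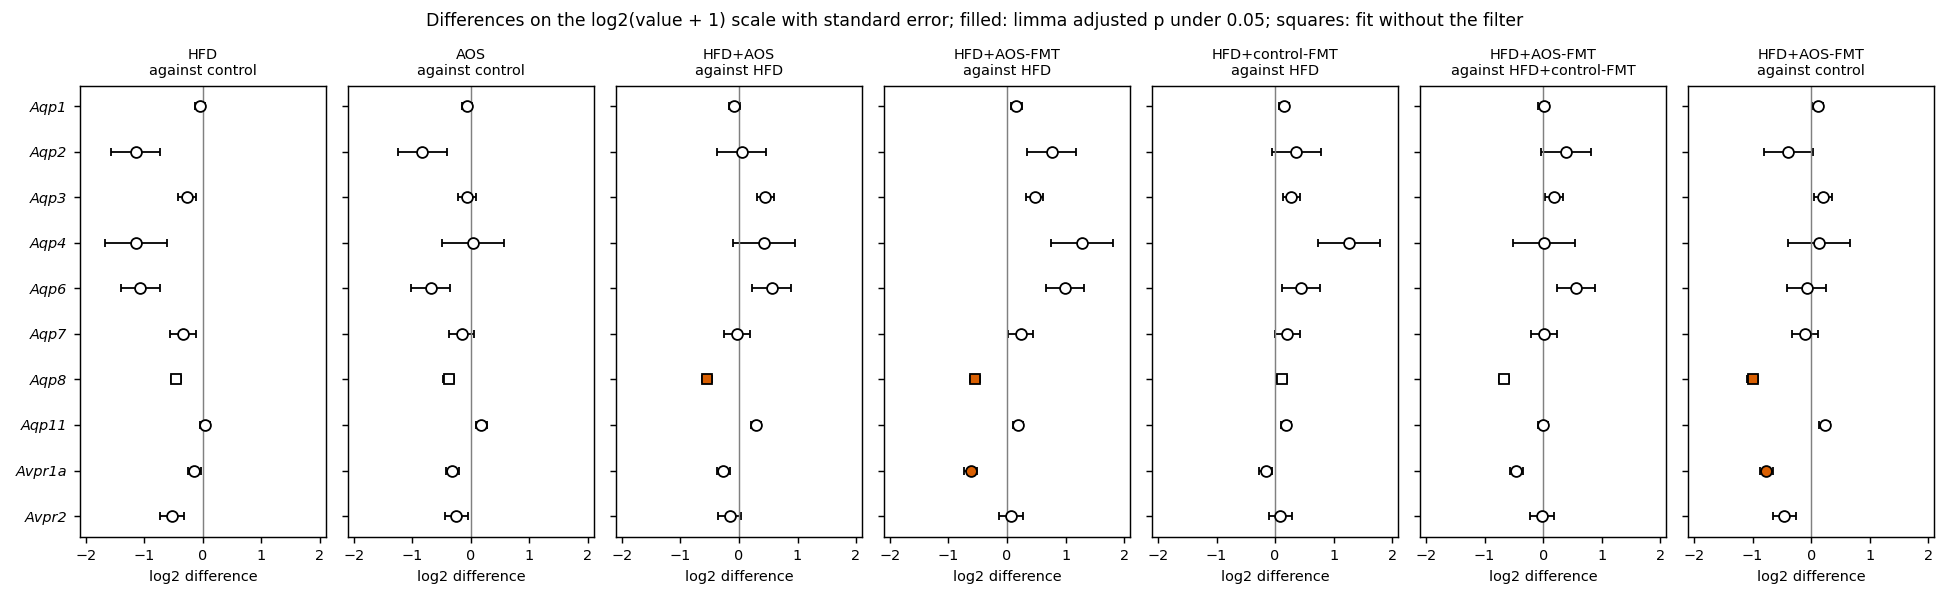
Difference on the log2(value + 1) scale (horizontal axis) with its standard error for each of the 10 genes (rows) in the 7 comparisons (panels). Filled symbols passed a limma adjusted p of 0.05, and squares mark Aqp8, which comes from the fit without a filter on low values. The filled circles are Avpr1a at -0.62 and -0.77, and the filled squares are Aqp8 at -0.55, -0.55 and -1.0.

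None of the listed signalling genes that act with the receptors passed the test. Of 14 genes of V2 signalling (cAMP, protein kinase A and vesicle traffic) 13 were tested and 0 passed in any comparison. In HFD+AOS-FMT against HFD 4 of them had an unadjusted p under 0.05, all higher, beside 13.3% of all genes in either direction. These were Prkacb, a catalytic subunit of protein kinase A (21.3 ± 2.04 against 18 ± 0.956, SD, n = 3), Gnas, the stimulatory G protein (516.8 ± 2.58 against 444.5 ± 20.6), Adcy6, an adenylyl cyclase (14.4 ± 2.37 against 10.3 ± 1.25), and Rab11fip2, which serves recycling vesicles (3.78 ± 0.364 against 2.95 ± 0.229). Their limma adjusted p-values were 0.219 to 0.262. Of the 8 genes of V1a signalling, all tested, 0 passed. Itpr1, the calcium release channel, had a log2 difference of 0.20 in HFD+AOS against HFD (28.8 ± 1.86 against 25 ± 1.52, limma adjusted p = 0.152), and Plcb1, a phospholipase C, one of 0.38 (6.54 ± 0.863 against 4.77 ± 0.421, adjusted p = 0.218).

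Among 14 genes of the medulla and of urine concentration, all tested, 1 passed, in HFD+AOS-FMT against control, where 2.32% of all genes did. Akr1b3, the aldose reductase that makes the osmolyte sorbitol, rose in HFD+AOS-FMT against control from 76.8 ± 2.38 to 129.8 ± 11.3 (SD, n = 3, log2 difference 0.75, SE 0.12, limma adjusted p = 0.0088). Its means were also above control in HFD+control-FMT (123.5 ± 2.04), HFD (120.2 ± 14.5), HFD+AOS (108.3 ± 12.2) and AOS (99.2 ± 19.2). In HFD against control Akr1b3 differed by 0.63 (adjusted p = 0.137). At an unadjusted p under 0.05, beside 17.4% of all genes in either direction, 5 listed genes were lower. Among them were Bsnd, the chloride channel subunit barttin (13.3 ± 1.13 against 21.3 ± 4.2, adjusted p = 0.137), Slc6a6, the taurine transporter (37.1 ± 2.73 against 56 ± 22.4, adjusted p = 0.235), and Kcnj1, the potassium channel ROMK (57 ± 5.53 against 85.7 ± 28.3, adjusted p = 0.241). Control replicate 3 was the highest control library for each. It was at 81.81 for Slc6a6 (42.77 and 43.3 in replicates 1 and 2), 116.81 for Kcnj1 (61.53 and 78.72) and 25.86 for Bsnd (17.57 and 20.56). Of 8 transcription factors of the collecting duct 7 were tested and 0 passed, with Tfcp2l1 at -0.38 in AOS against control (adjusted p = 0.345). The counts of 0 stand beside unadjusted ones of 0 to 4 genes a comparison for V2 signalling, 0 to 2 for V1a signalling and 0 to 2 for the transcription factors.

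The other vasopressin receptor, the vasopressin gene and the other aquaporins were near 0. The receptor gene Avpr1b was listed at 0 in all 18 libraries. Avp, the vasopressin gene, was listed at 0 in 17, and its highest value was 0.18, in control replicate 3. Aqp5, which lies between Aqp2 and Aqp6, reached at most 0.39, and Aqp9 at most 0.11. Of 12 listed genes of these and of neighbouring hormone systems, 3 passed the filter and 0 passed the test in any comparison. These 3, which were not near 0, were Apela (a peptide hormone gene), Ptger1 and Ptger3 (prostaglandin E receptor genes). All 3 had lower values in HFD than in control at an unadjusted p under 0.05 (limma adjusted p = 0.254, 0.26 and 0.237), beside 17.4% of all genes in either direction. Control replicate 3 was the highest control library for each. It was at 61.04 for Apela (21.64 and 32.53 in replicates 1 and 2), 4.16 for Ptger1 (2.1 and 2.17) and 29.43 for Ptger3 (15.4 and 21.65).

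For each tested member the genes with the most similar pattern over libraries were found by Pearson's r of log2(value + 1), as a description. All libraries share the group structure, so such values carry no test. Aqp2 was most like Bcam (r = 0.966 over 18 libraries, 0.929 over 17 without control replicate 3), and Avpr2 most like Sostdc1 (0.895 and 0.84). Aqp1 was most like Slc5a3, the transporter of the osmolyte myo-inositol (0.926 and 0.928). For Aqp6, Trub2 (0.919 and 0.883) and Slc4a1, the anion exchanger of intercalated and red blood cells (0.918 and 0.88), stood in both lists of 3. Aqp3 had P3h2 (0.913 and 0.896), and Aqp4 had A4gnt (0.871 and 0.859), Napsa (0.863 and 0.869) and Mme, a brush border peptidase (0.846 and 0.865). Aqp7 was most like Slc38a3, a glutamine transporter (0.878 and 0.822). Avpr1a had Ndrg1 (0.862 and 0.874) in both lists. For Aqp11 no gene stood in both lists, with Trim7 leading over 18 libraries (0.789) and Ttc38 over 17 (0.862).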

How the data were processed

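RNA of mouse kidney was measured in 18 libraries. The members and gene lists were chosen with earlier results of these data known. The aligner was Bowtie 0.12.2 and the genome mm10, per the submitters' processing notes. Per the labels' protocols, 1 µg of Trizol and column-purified total RNA entered each Illumina library. Neither the counting program, nor its use of strand, nor annotation and normalization are stated. What the authors deposited is 1 table of normalized signal per gene, with 2 decimals and no named unit. Column sums varied by 3.5% (coefficient of variation) and by 0.586% after multiplication by transcript length, known for 97.3% of genes. Of 19545 entries, 26 symbols turned into dates and 1 repeated entry were left out.

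Groups came from the labels. Genes reaching a signal of 1 in 3 or more libraries (12031) were fitted as log2(value + 1) in 1 linear model of 6 groups and 18 libraries, with trend and robust variance estimation (limma 3.58.1, R 4.3.3), 7 two-sided contrasts, an F test, and Benjamini-Hochberg adjustment over all tested genes at 0.05. The plan had assumed a named unit, and the same test was kept. This scale understates differences of low genes, Aqp8 most. Every member is given with all values, and every member and contrast with an unadjusted p under 0.05 with its difference. Listed genes with an unadjusted p under 0.05 were eligible to be named, at most 4 a list and contrast. On simulated data for HFD+AOS-FMT against HFD (12031 genes, 50 changed at each size), 66%, 90%, 96% and 100% of genes changed by 0.5, 1, 2 and 3 on the log2 scale were recovered, with 14 false calls. The changed genes were drawn from those with a mean log2(value + 1) above 2, so these shares do not cover the lower levels of Avpr1a and Aqp8. Simulated noise was normal and independent between libraries, with no outlying library or germ cell split, so the shares may not hold in the real data.

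Alternatives were a pseudocount of 0.1, no filter, quantile normalization, no trend or robust estimation, the 2 groups alone, a replicate block and leaving out each library. A germ cell batch term, and no filter with a pseudocount of 0.1, were added after the data were seen. Versions of Python (3.11.15), pandas (2.3.3) and matplotlib (3.10.9) apply to tables and plots. Upstream sequences are RefSeq's. No counting interval is given because read numbers are unknown.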

Additional observations from a re-analysis of the deposited data

How the results depend on the processing

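The 26 member differences with an unadjusted p under 0.05 were followed over 664 alternatives. Of these, 0 changed sign, 611 stayed on their side of the threshold, 42 lost a call and 11 gained one. Selection by p in the same data favours stable signs, and most of the 611 were uncalled differences that stayed uncalled. All 42 lost calls were of Avpr1a or Aqp8. In HFD+AOS-FMT against HFD the call was lost in 16 of 26 alternatives for Avpr1a and in 15 of 24 for Aqp8. The count of members called among those tested in HFD+AOS against HFD was 0, and 1 in a fit of the 2 groups alone, with no filter and with no filter and a pseudocount of 0.1; leaving out 1 library gave 0 to 1. In HFD+AOS-FMT against HFD it was 1, and 0 after quantile normalization and with the germ cell batch term, 2 with no filter and a pseudocount of 0.1, and 0 to 2 over left-out libraries (2 without control replicate 3). Between both transplants it was 0, and 1 with no filter and a pseudocount of 0.1. In HFD+AOS-FMT against control it was 1, and 0 in the 2 groups alone and with the batch term, 2 with no filter and with that setting and a pseudocount of 0.1. For the F test it was 1, and 0 after quantile normalization and with the batch term, 2 in both fits without a filter, and 0 to 1 over left-out libraries. In HFD against control, AOS against control and HFD+control-FMT against HFD it stayed at 0 in all alternatives counted. These counts tested Aqp8 only in both fits without a filter that kept all libraries. Followed without a filter, Aqp8 gained a call without control replicate 2 in HFD against control (limma adjusted p = 0.011) and in AOS against control (0.0116).

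Replicate numbers did not pair the libraries: 5 of 45 same-numbered pairs of deviations had r over 0.1 (median -0.02), and 5 libraries were closest to their own number. With the replicate block the counts of members called were 0 in HFD+AOS-FMT against HFD and 0 in the F test, the adjusted p against HFD was 0.0689 for Avpr1a in HFD+AOS-FMT and, for Aqp8, 0.0612 in HFD+AOS and 0.078 in HFD+AOS-FMT, and all genes called went from 99 to 45 in HFD+AOS against HFD and from 279 to 180 in HFD+AOS-FMT against control.

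Over all genes, HFD+AOS against HFD had 99 calls (56 higher, 43 lower), 108 after quantile normalization (78 and 30), 7 with the batch term, 314 in the 2 groups alone and 818 without control replicate 3. HFD+AOS-FMT against HFD had 21 (12 and 9), 9 (3 and 6), 1, 166 and 585, and HFD+AOS-FMT against control 279 (119 and 160), 395 (235 and 160), 1, 5 and 521. The planned batch term, which included Smcp, could not be fitted because all 18 libraries exceeded its limit, and Smcp was dropped after the data were seen. With that term HFD replicate 3 alone stands for HFD beside the groups low in the remaining germ cell markers. Comparisons of AOS or HFD+AOS-FMT with control then rest on the difference of HFD replicates 1 and 2 from replicate 3, so a call lost there says little. Unknown read numbers limit Aqp8 most.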
